A study of Mus musculus with 16 samples.

Results

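The genes described here are 33 macrophage and myeloid cell genes measured in mouse kidney. They were taken by name: the 3 genes of complement C1q, the Fc gamma receptors with their adaptors, and commonly used myeloid surface, lysosomal and regulatory genes, with MHC class II genes not included. All 33 were found among the 40879 gene symbols listed for each library, and 32 of them passed the filter on low counts. RNA came from whole kidneys of male wild-type C57BL/6 mice in 4 groups. The Young group was 5 libraries from mice 3 months of age, with no treatment. The Old group was 5 libraries from naturally aged, untreated mice, whose age at collection was not stated in the labels. The Old + YM group (3 libraries) and the Old + PM group (3 libraries) received the herbal formulas Yukmijihwang-tang (YM) and Palmijihwang-tang (PM). Both were oral, at a daily 100 mg/kg on 5 days per week, beginning at 19 months and ending at 24 months of age, and 1 passage of the design text names the PM dose as YM. The aged groups had an acclimatization of 5 months. Since no label ties libraries to separate mice, p-values measure only the spread between these libraries. Levels below are CPM, counts relative to the scaled total of the library, from QuantSeq, which reads the 3′ end of a transcript. At the lowest total, 1 CPM is about 8 counts.

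Kidney macrophages lie between the tubules and around capillaries, take up immune complexes and dying cells, and depend on the receptor Csf1r and on transcription factors such as PU.1, which the gene Spi1 encodes. C1q binds antibody in immune complexes and starts the classical complement pathway, and in tissues macrophages are its main source. Activating Fc gamma receptors signal through the adaptor chain Fcer1g, related surface receptors signal through Tyrobp, and Fcgr2b opposes them as the inhibitory receptor. In whole tissue, fewer cells of a type and less RNA per cell cannot be told apart.

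Library totals ran from 8223008 to 10914515 counts. Tubule genes were abundant in every group, with 8 proximal tubule markers summing to 9051 to 10274 CPM in Young and 6356 to 9224 CPM in Old, which matches the labelled tissue. The library Old 5 stood apart for the myeloid genes. It had the highest level of all 16 libraries for 31 of the 33 genes and the highest Old level for all 33, at a median of 4.51 times the mean of the other Old libraries (range 1.41 to 45.9). The summed level of the 33 genes was 1825 CPM in Old 5 and 348 to 595 CPM in the other 4 Old libraries. It was 292 to 338 CPM in Young, 411 to 509 CPM in Old + YM and 492 to 749 CPM in Old + PM. T and NK cell genes moved with them in Old 5. The 16 T and NK cell markers summed to 76.1 CPM there against 6.31 to 14.5 in the other Old libraries. B and plasma cell markers (248 CPM against 127 to 203) and neutrophil markers (16.8 CPM against 4.68 to 9.45) were highest there too. Red cell markers were lowest in Old 5 (167 CPM against 273 to 2103). Fibroblast markers were also highest of the Old libraries in Old 5 (389 CPM against 153 to 257) and proximal tubule markers lowest (6356 CPM against 8302 to 9224). The part of these differences in the results below was not tested, and the main counts are given with and without Old 5.

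**Figure D1:**
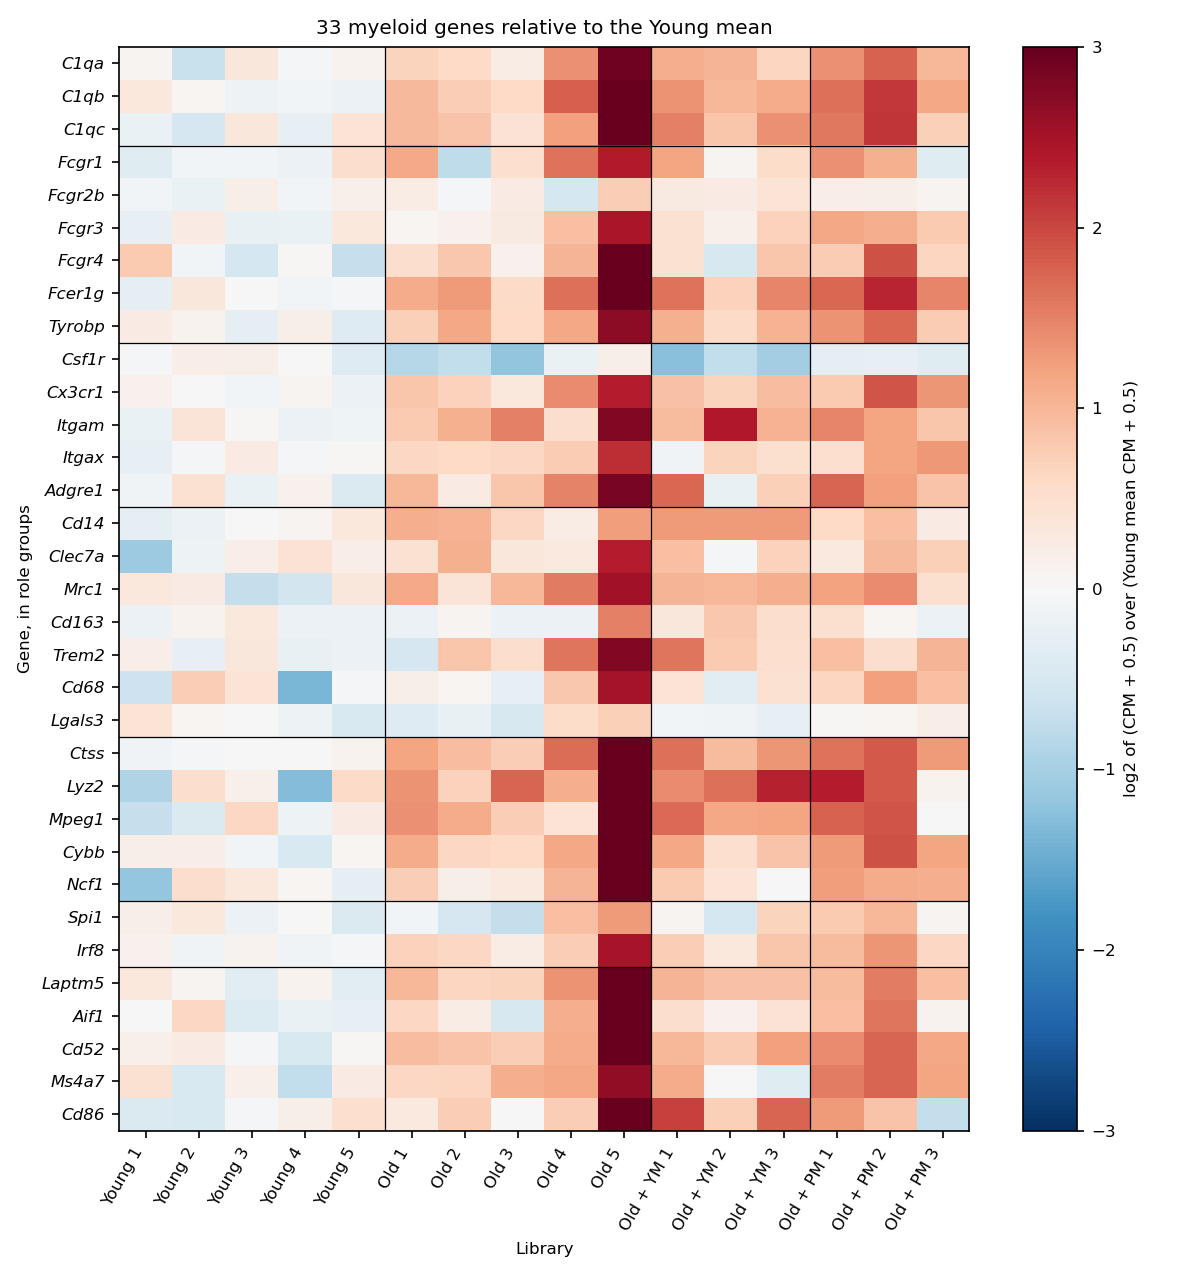
Level of each of the 33 genes in each of the 16 libraries, as the log2 ratio to the mean of the Young libraries, with genes ordered by role and libraries by group. Old 5 is the strongest column, and its summed level of 1825 CPM compares with 348 to 595 CPM in the other Old libraries.

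Genes of macrophages were higher in Old than in Young kidneys. Of the 32 tested genes, 21 rose (6.47% of all tested genes did), 0 fell (7.13% did) and 11 did not pass (edgeR quasi-likelihood test, Benjamini-Hochberg adjusted p under 0.05). DESeq2 called 25 genes higher (1227 of all 14665 genes) and limma-voom 5 (715 of all genes). Both called 0 lower (1246 and 1066 of all genes). Among genes with a negative value, 1 (Csf1r) had an unadjusted p under 0.05. The median log2 fold change was 1.76 over these genes and 0.022 over all 14665 tested genes, and 31 of the 32 values were positive (52.6% of all genes). In 15 genes every Old library lay above every Young library, and in 0 below, against 4.21% and 4.97% of all tested genes. The genes that rose included all 3 C1q genes, both adaptors Fcer1g and Tyrobp, the cathepsin Ctss, the oxidase subunit Cybb and the mannose receptor Mrc1. Without Old 5, 14 of 31 tested genes rose (3.76% of all genes), 1 fell (4.53% of all genes) and the median was 0.93. All 14 had also risen with Old 5 included, and the gene that fell was Csf1r. The count that rose changed by more than 1.5 times without Young 1 (11 genes, 723 of all 14611), Young 2 (13, 696 of 14609), Young 3 (13, 702 of 14600) or Young 4 (10, 640 of 14628). It did not change by more than that without any other single library, Old 5 included. Cd14, Cx3cr1, Mrc1 and Tyrobp passed under every alternative that was run.

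**Figure D2:**
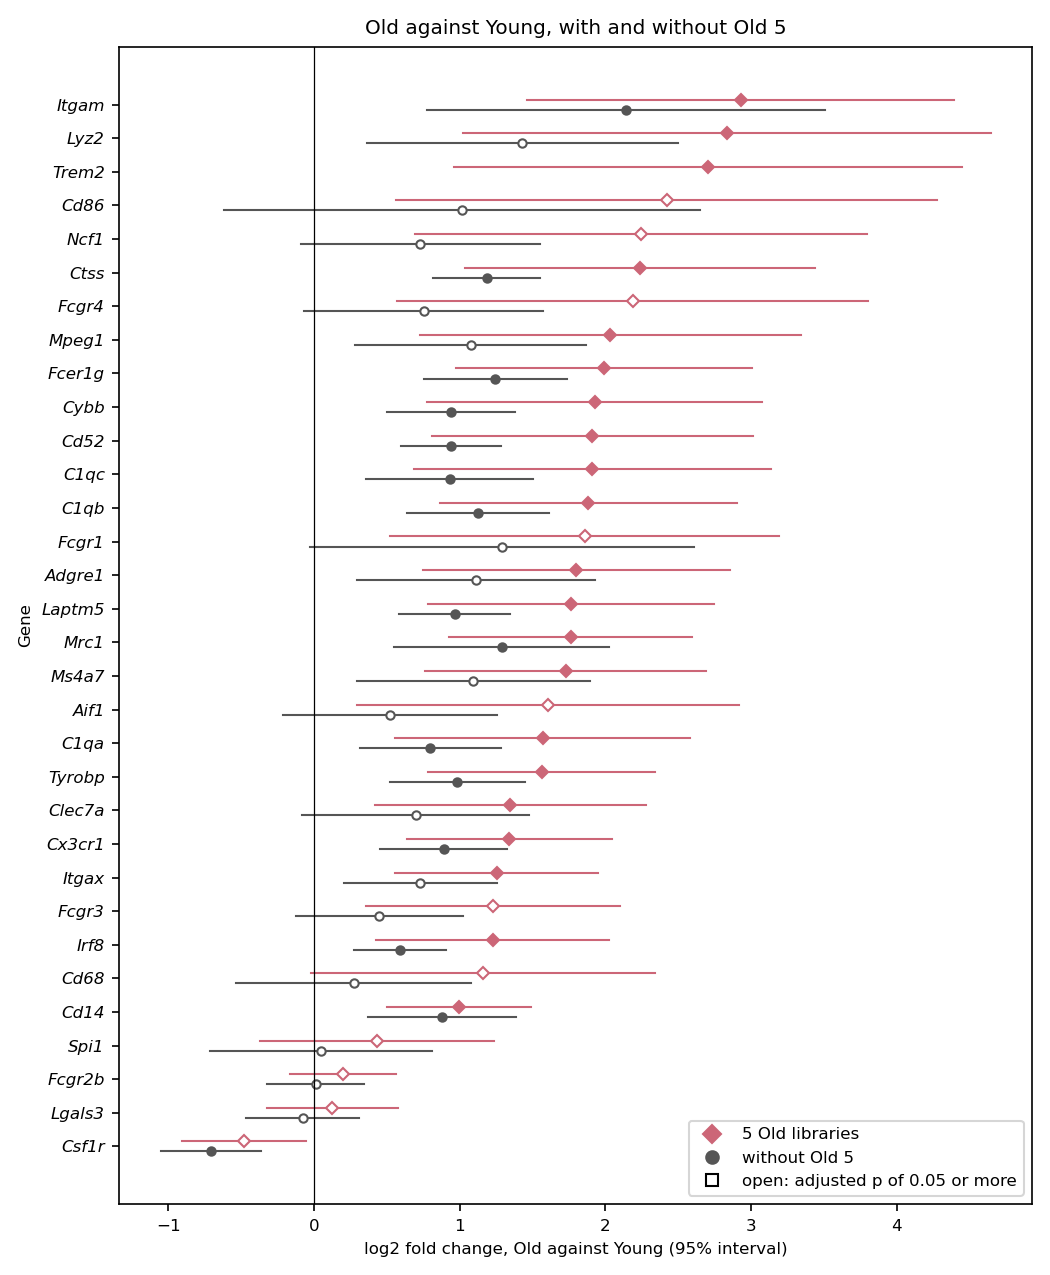
Log2 fold change of each tested gene in Old against Young with its 95% interval, with all 5 Old libraries (diamonds) and without Old 5 (circles). The median moved from 1.76 to 0.93 without Old 5, and Csf1r was negative in both.

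Sequences before the start site are shown for 5 genes that all rose in Old, because PU.1 is known to act at many macrophage genes through short purine-rich stretches. The 5 were chosen after their values and matches were seen. RefSeq start sites (GRCm38.p6) were matched by symbol for 25 of the 33 genes. C1qa, Tyrobp, Csf1r, Adgre1, Cd14, Spi1, Cd52 and Cd86 had no entry. The letters GAGGAA, the core of PU.1 sites, were searched on both strands in the 250 bases before each start. Of the 25 genes, 13 (52%) held a match, against 25.9% of 27018 genes in the same table. The longer strings AGGAAGT and GAGGAAGT, which overlap the first, were in 24% and 8% of the 25 genes and in 8.8% and 2.79% of all genes. The 250 bases before the start are printed for C1qb (chr4:136886201-136886450, minus strand), Ctss (chr3:95526536-95526785, plus strand), Itgam (chr7:128062390-128062639, plus strand), Trem2 (chr17:48346151-48346400, plus strand) and Mpeg1 (chr19:12460520-12460769, plus strand), from 5′ to 3′ on the strand of the gene, with matches to GAGGAA or its reverse complement in capitals.
C1qb: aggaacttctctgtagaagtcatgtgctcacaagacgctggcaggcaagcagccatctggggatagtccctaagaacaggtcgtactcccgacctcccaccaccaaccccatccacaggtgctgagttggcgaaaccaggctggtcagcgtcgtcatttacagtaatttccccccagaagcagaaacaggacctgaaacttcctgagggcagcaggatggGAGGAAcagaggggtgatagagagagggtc
Ctss: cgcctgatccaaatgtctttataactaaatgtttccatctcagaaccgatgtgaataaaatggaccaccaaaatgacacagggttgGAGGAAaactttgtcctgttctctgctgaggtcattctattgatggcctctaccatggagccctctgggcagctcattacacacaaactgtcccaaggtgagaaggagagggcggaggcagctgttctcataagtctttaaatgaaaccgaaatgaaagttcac
Itgam: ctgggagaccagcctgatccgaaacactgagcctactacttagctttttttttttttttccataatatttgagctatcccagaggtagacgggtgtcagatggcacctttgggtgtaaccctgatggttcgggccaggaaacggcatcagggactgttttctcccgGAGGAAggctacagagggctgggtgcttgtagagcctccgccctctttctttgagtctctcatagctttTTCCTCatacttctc
Trem2: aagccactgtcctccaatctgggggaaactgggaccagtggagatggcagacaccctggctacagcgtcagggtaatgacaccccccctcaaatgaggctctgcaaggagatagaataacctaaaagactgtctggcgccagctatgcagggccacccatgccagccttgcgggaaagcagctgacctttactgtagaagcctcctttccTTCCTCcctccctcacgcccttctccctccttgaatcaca
Mpeg1: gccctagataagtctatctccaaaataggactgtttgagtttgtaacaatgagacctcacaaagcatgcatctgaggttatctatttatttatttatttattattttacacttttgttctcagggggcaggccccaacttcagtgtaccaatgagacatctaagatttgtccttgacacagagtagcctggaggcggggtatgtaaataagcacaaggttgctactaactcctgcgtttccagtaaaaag
The match nearest the start lay 30 bases before it in C1qb, 164 in Ctss, 15 in Itgam and 40 in Trem2, and Mpeg1 has none in this window. C1qc, Clec7a, Mrc1 and Laptm5 also rose and held a match, while Fcer1g, Cx3cr1, Itgax, Lyz2, Cybb, Irf8 and Ms4a7 rose and held none. Among genes not called higher by edgeR, Fcgr1, Fcgr3, Fcgr4, Cd68 and Aif1 held a match. Fcgr2b, Cd163, Lgals3 and Ncf1 were not called higher and held none. For C1qc, Fcgr2b, Fcgr3, Cx3cr1, Lgals3, Laptm5 and Cybb, the start used did not match the gene start annotated by GENCODE. The same held for a further start of Irf8 and of Ms4a7, so these windows may not be the promoter of the gene. The matches are letters in a window and were not tested as sites or for a link to the rise.

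The C1q genes C1qa, C1qb and C1qc encode the chains of 1 protein and lie side by side on the minus strand of chromosome 4 (GRCm38: C1qb at chr4:136880129-136886187, C1qc at chr4:136889804-136893065, C1qa at chr4:136895917-136898803). C1qb was at 15.7, 13.1, 11.2, 11.9 and 11 CPM in the Young libraries 1 to 5 and at 25, 21.3, 19.2, 44.9 and 122 CPM in the Old libraries 1 to 5. It was at 32.8, 25.4 and 27.6 CPM in Old + YM and at 40.6, 56 and 28.8 CPM in Old + PM. All 11 aged libraries lay above all 5 Young libraries, with Old 5 far above the rest, followed by Old + PM 2 and Old 4. The fold change of Old against Young was 3.69 (log2 1.88, SE 0.47, adjusted p = 0.0197), and without Old 5 it was 2.18 (log2 1.13, SE 0.23, adjusted p = 0.00564). C1qc did not overlap either, but narrowly, at 7.42 to 14.5 CPM in Young and 14.8 to 119.9 CPM in Old (log2 1.91, adjusted p = 0.042). C1qa was at 8.23 to 17.1 CPM in Young and at 15.8 to 106 CPM in Old, where Old 3 lay among the Young values (log2 1.57, adjusted p = 0.0429). The count ratio of C1qb to C1qa within a library was 1.16 ± 0.0901 in Old (SD, n = 5), 1.11 ± 0.189 in Old + YM (n = 3) and 1.13 ± 0.0718 in Old + PM (n = 3), and it varied more in Young (1.0 ± 0.371, n = 5).

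Both Fc receptor adaptors rose, and none of the 4 Fc gamma receptor genes passed the edgeR test, while DESeq2 called Fcgr1 and Fcgr3 higher. Fcer1g, the chain that carries the signal of activating Fc receptors, was at 7.13, 11.3, 8.91, 8.41 and 8.68 CPM in the 5 Young libraries and at 19.8, 22.1, 13.5, 29.1 and 92.3 CPM in the 5 Old libraries. In Old + YM it was at 28.6, 14.6 and 25.3 CPM and in Old + PM at 30.3, 45.2 and 25.4 CPM. No aged library reached down to the Young range. The log2 fold change in Old was 1.99 (SE 0.47, adjusted p = 0.0142), and 1.25 without Old 5 (adjusted p = 0.00281). Tyrobp, the adaptor of Trem2 and related receptors, was at 7.03, 6.3, 4.76, 6.69 and 4.34 CPM in Young and at 9.86, 13.7, 9.08, 13.6 and 40.1 CPM in Old, again with no overlap (log2 1.56, SE 0.37, adjusted p = 0.011).

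The activating receptor Fcgr4 was at 4.55, 2.24, 1.52, 2.48 and 1.31 CPM in Young and at 3.68, 4.59, 2.71, 5.46 and 39.2 CPM in Old, so that the groups overlapped and 1 library, Old 5, held most of the Old level (log2 2.19, 95% interval 0.57 to 3.80, adjusted p = 0.0709). Fcgr3, a low-affinity activating receptor, was at 2.17 to 3.42 CPM in Young and 2.79 to 16.7 CPM in Old (log2 1.23, adjusted p = 0.057). The high-affinity receptor Fcgr1 was close to the counting limit, at 0.413 to 1.18 CPM in Young and 0.191 to 5.59 CPM in Old (log2 1.86, adjusted p = 0.0587). The inhibitory receptor Fcgr2b was at 16.1, 14.8, 19.6, 16.2 and 19.3 CPM in Young and at 20.3, 16.8, 20.7, 11.8 and 29.3 CPM in Old, with both groups in the same range (log2 0.20, 95% interval -0.17 to 0.57, adjusted p = 0.501). Within a library, the summed counts of Fcgr1, Fcgr3 and Fcgr4 per count of Fcgr2b were 0.222 to 0.442 in Young. The ratio was 0.348 to 0.460 in 3 Old libraries, 1.19 in Old 4 and 2.10 in Old 5. It was 0.262 to 0.458 in Old + YM and 0.520 to 0.959 in Old + PM, where all 3 libraries lay above all Young ones. Fcgr2b, Fcgr3 and Fcgr4 are neighbours on chromosome 1, and 1.36% of the 50-base stretches at the end of Fcgr2b also occur in Fcgr3.

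Csf1r, the receptor for the macrophage growth factors CSF1 and IL34, did not follow the other genes. It was at 69.7, 83.5, 82.4, 74.3 and 56 CPM in Young and at 40.5, 43.4, 32, 63.7 and 82.9 CPM in Old. In Old + YM it was at 30.5, 43.4 and 35.3 CPM, below every Young library, and in Old + PM at 60.9, 62 and 57.1 CPM. Old 1 to 3 and all Old + YM libraries were under the lowest Young value, 6 of the 11 aged libraries in all, and no aged library was above the Young range. The log2 fold change in Old was -0.48 (SE 0.20, adjusted p = 0.128), and Csf1r fell once Old 5 was left out (log2 -0.71, SE 0.16, adjusted p = 0.0104). Its share of the summed level of the 33 genes was 22.8% ± 2.68 in Young (SD, n = 5), 8.87% ± 2.53 in Old (n = 5), 7.98% ± 2.34 in Old + YM (n = 3) and 10.1% ± 1.68 in Old + PM (n = 3). The count ratio of the 3 C1q genes to Csf1r was 0.344 to 0.716 in Young, 1.43 to 4.20 in Old, 1.67 to 3.07 in Old + YM and 1.30 to 2.45 in Old + PM, with no overlap between Young and any aged group. Exons of Csf1r overlap those of Hmgxb3 on the other strand, with 20% of its terminal 50-base stretches shared. Whether counting used strand is not given in the sources, so reads of the pair may not be separable, and Hmgxb3 itself was at 18.6 ± 0.875 CPM in Young and 15.3 ± 1.86 CPM in Old (SD, n = 5 each).

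**Figure D3:**
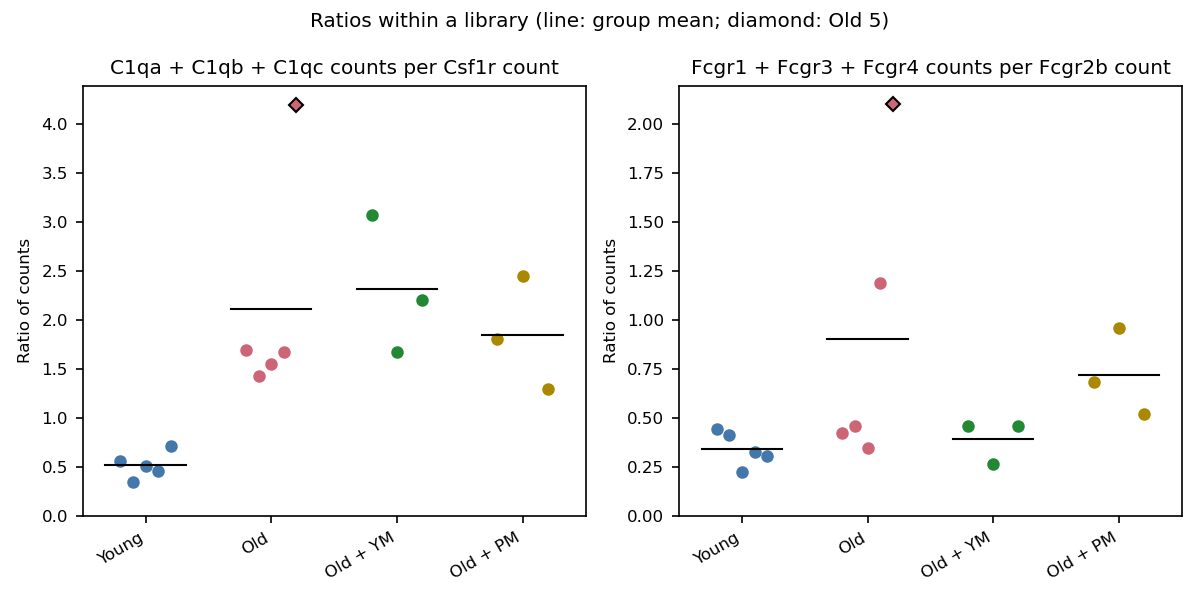
Ratios of counts within each library by group: the sum of C1qa, C1qb and C1qc per Csf1r, and the sum of Fcgr1, Fcgr3 and Fcgr4 per Fcgr2b. The first ratio was 0.344 to 0.716 in Young and at least 1.30 in every aged library, while the second was highest in Old 5 (2.10) and Old 4 (1.19).

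Of the 5 growth factor, chemokine and adhesion receptors, the 4 besides Csf1r rose in Old. Cx3cr1, the receptor for fractalkine and a gene of resident macrophages and patrolling monocytes, was at 14.2, 12.8, 12.1, 13.6 and 11.3 CPM in Young and at 23.2, 21, 16.2, 34.8 and 67.2 CPM in Old. The lowest Old library, Old 3, was still above the highest Young library (log2 1.34, SE 0.33, adjusted p = 0.0148). Itgam, the CD11b integrin chain, had 1, 4, 2, 1 and 1 counts in the Young libraries and 7, 10, 14, 5 and 42 counts in the Old libraries, so the size of its rise rests on few Young counts (log2 2.93, SE 0.70, adjusted p = 0.00892). Itgam also shares 30.1% of its terminal 50-base stretches with the gene model Gm49368. Itgax, the CD11c integrin chain, was at 2.27 to 3.44 CPM in Young and 4.5 to 14.9 CPM in Old (log2 1.25, adjusted p = 0.0169). Adgre1, which encodes the classical mouse macrophage antigen, was at 1.31 to 2.85 CPM in Young and 2.39 to 17.2 CPM in Old (log2 1.80, adjusted p = 0.0251). Neither Itgax nor Adgre1 passed without Old 5 (adjusted p = 0.0814 and 0.0876).

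Among receptors for microbes, dying cells and lipids, Mrc1, Cd14, Trem2 and Clec7a rose. Mrc1, the mannose receptor of tissue macrophages, had the smallest adjusted p of the 32 genes. It was at 2.17, 2.03, 0.81, 0.971 and 2.23 CPM in Young and at 4.18, 2.3, 3.76, 5.85 and 11.8 CPM in Old, and at 3.83, 3.77 and 4.09 CPM in Old + YM and 4.47, 5.22 and 2.48 CPM in Old + PM. All 11 aged libraries lay above Young (log2 1.76, SE 0.40, adjusted p = 0.00628), and the fold change without Old 5 was 2.44 (adjusted p = 0.027). Cd14, a co-receptor for bacterial lipopolysaccharide, was at 2.48, 2.74, 3.14, 3.34 and 4.07 CPM in Young and at 7.27, 6.98, 5.11, 3.8 and 8.19 CPM in Old. Old 4 and not Old 5 was the odd value here, since it lay within the Young range (log2 0.99, SE 0.24, adjusted p = 0.00848). Trem2, a lipid-sensing receptor that signals through Tyrobp, had 3, 1, 4, 1 and 1 counts in Young and 0, 8, 5, 17 and 44 counts in Old, where the 0 of Old 1 allows up to 3 counts (log2 2.70, adjusted p = 0.0364). It did not pass the filter on low counts once Old 5 was left out. Clec7a, the beta-glucan receptor Dectin-1, passed narrowly (log2 1.35, adjusted p = 0.0498) and did not pass without Old 5 (adjusted p = 0.285). The lysosomal glycoprotein gene Cd68 was at 1.96, 5.89, 4.56, 0.971 and 3.15 CPM in Young and 3.78, 3.44, 2.71, 6.14 and 21.1 CPM in Old, with wide overlap (adjusted p = 0.188). Lgals3, which encodes galectin-3 and is also made by kidney epithelium, was at 39.8 to 72.7 CPM in Young and 39.3 to 90.8 CPM in Old (log2 0.12, 95% interval -0.33 to 0.57, adjusted p = 0.757). Cd163, the haemoglobin scavenger receptor, had 0 to 2 counts per Young library, 11 counts in Old 5 and 0 to 4 counts in every other aged library, and was not tested. A library with 0 counts allows up to 3, as counting error only.

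**Figure D4:**
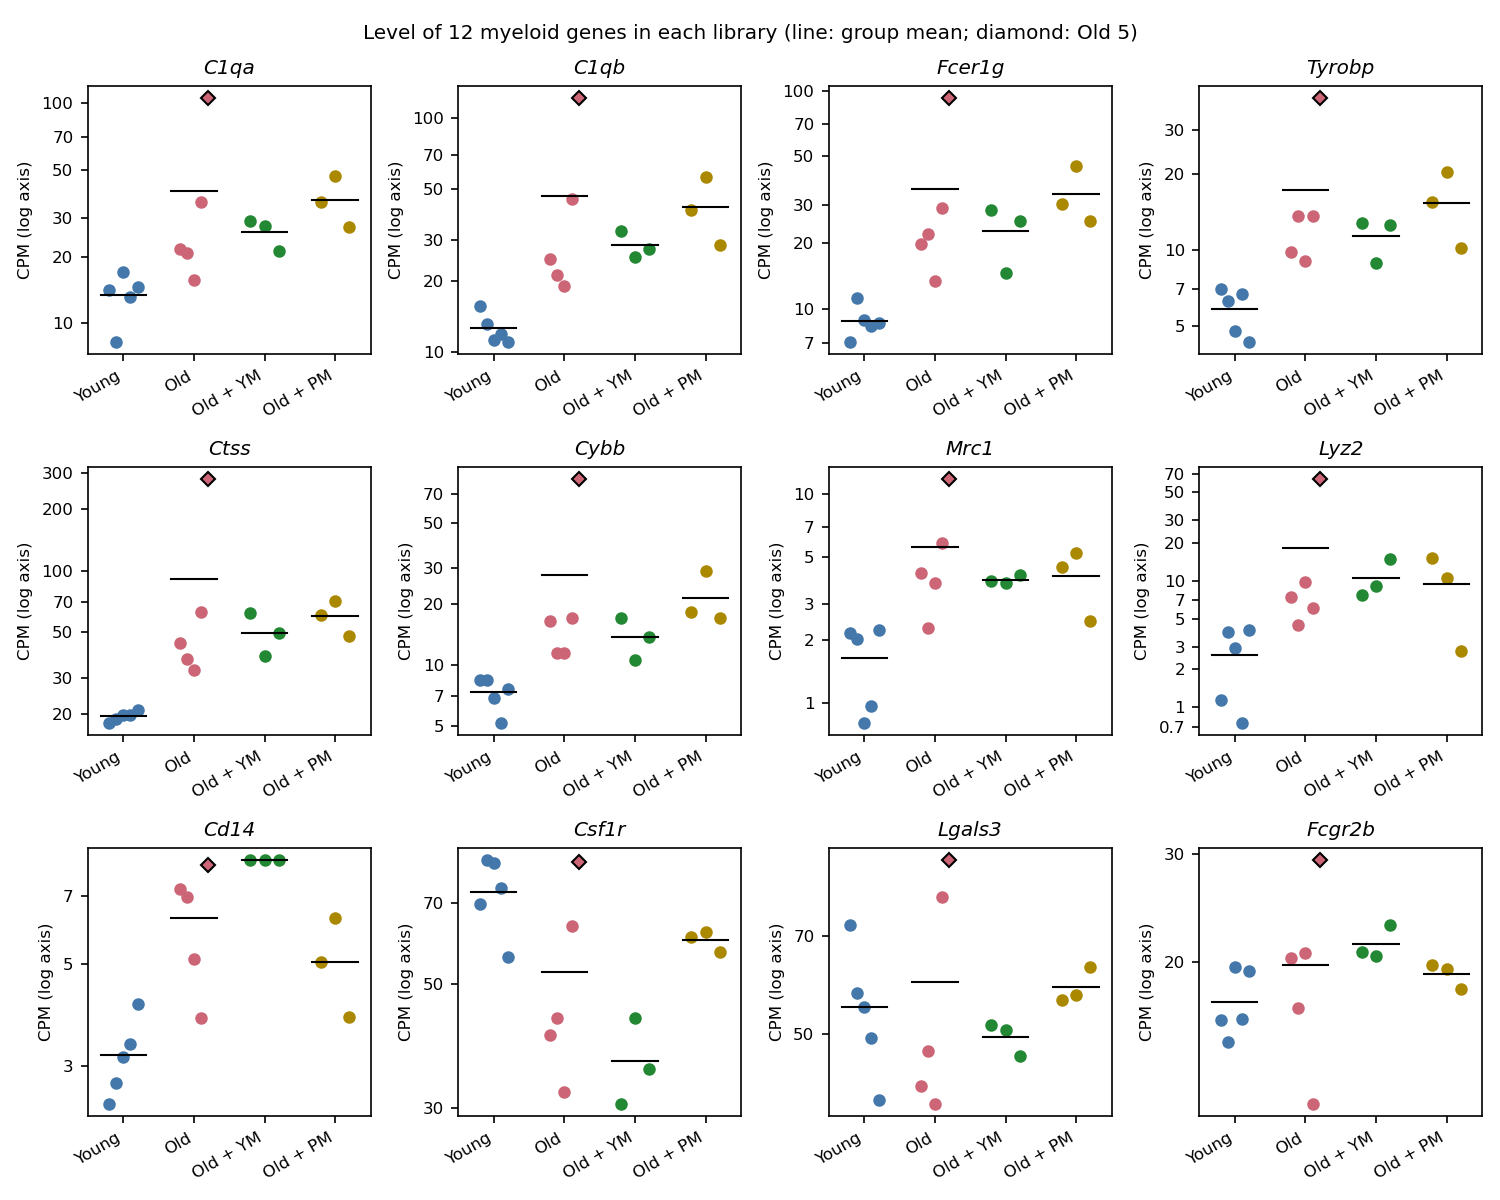
CPM of 12 of the genes in every library on log axes that differ between panels, with a line at each group mean and Old 5 as a diamond. C1qb, Fcer1g, Tyrobp, Ctss, Cybb and Mrc1 lie above Young in all 11 aged libraries, Csf1r does not rise, and Lgals3 and Fcgr2b overlap between Young and Old.

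Genes for digestion and oxidative killing had the highest median of the 7 role groups, at log2 2.24 over 5 genes, of which 4 rose. Ctss, a lysosomal cysteine protease that trims antigen in myeloid cells, was at 18.1, 18.8, 19.6, 19.6 and 20.8 CPM in Young, a narrow range. It was at 44.4, 37.1, 32.5, 62.9 and 280.1 CPM in Old, at 61.8, 38.1 and 49.6 CPM in Old + YM and at 61, 71 and 47.9 CPM in Old + PM. Every aged library was above every Young one, and Old 5 was far above the next library (log2 2.24, SE 0.55, adjusted p = 0.0194). The fold change without Old 5 was 2.28 (adjusted p = 0.000336). Cybb, the membrane subunit of the phagocyte NADPH oxidase, was at 8.37, 8.43, 6.88, 5.18 and 7.62 CPM in Young and at 16.4, 11.5, 11.4, 17 and 82.6 CPM in Old (log2 1.93, adjusted p = 0.0305), and it passed without Old 5 too (log2 0.94, adjusted p = 0.00806). Lyz2, lysozyme of myeloid cells, was at 1.14, 3.96, 2.94, 0.755 and 4.07 CPM in Young and at 7.37, 4.5, 9.81, 6.04 and 63.5 CPM in Old (log2 2.83, adjusted p = 0.0416). The pore-forming protein gene Mpeg1 was at 1.55 to 4.56 CPM in Young and 3.9 to 33.5 CPM in Old (log2 2.03, adjusted p = 0.0412). Neither Lyz2 nor Mpeg1 passed without Old 5 (adjusted p = 0.0975 and 0.0885), and Lyz2 shares 16.9% of its terminal 50-base stretches with Lyz1. Ncf1, a cytosolic subunit of the same oxidase, was at 0.413 to 2.44 CPM in Young and 1.82 to 26.6 CPM in Old, and at or under 3.61 CPM outside Old 5 (adjusted p = 0.0538).

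The 2 transcription factors differed. Irf8, needed for monocyte and dendritic cell development, was at 26.4, 22.7, 25.9, 22.3 and 23.8 CPM in Young and at 39.7, 37.4, 28.3, 40.9 and 137 CPM in Old, with no overlap (log2 1.23, SE 0.37, adjusted p = 0.0435), and at log2 0.59 without Old 5 (adjusted p = 0.0178). Spi1 was at 4.13, 4.57, 3.14, 3.56 and 2.5 CPM in Young and at 3.39, 2.39, 1.98, 7.11 and 9.39 CPM in Old, where Old 2 and Old 3 were below every Young library and Old 4 and Old 5 above (log2 0.43, 95% interval -0.37 to 1.23, adjusted p = 0.505).

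Of the other surface and cytoskeletal genes, Laptm5, Cd52 and Ms4a7 rose. Laptm5, a lysosomal membrane protein gene of leukocytes, was at 9.07 to 14.4 CPM in Young and 18 to 105 CPM in Old (log2 1.77, adjusted p = 0.0223). Cd52, a small surface glycoprotein gene of lymphocytes as well as macrophages, was at 12.8, 13.7, 11, 8.31 and 12 CPM in Young and at 22.6, 21.3, 19.5, 25.6 and 129 CPM in Old (log2 1.91, adjusted p = 0.0267). The other 4 Old levels of Cd52 were close together and above every Young library. Ms4a7, a macrophage membrane gene, was at 0.755 to 2.38 CPM in Young and 2.69 to 12.8 CPM in Old (log2 1.73, adjusted p = 0.0177), and did not pass without Old 5 (adjusted p = 0.0855). Aif1, an actin-bundling protein gene used to stain macrophages, was at 3.51, 5.69, 2.53, 3.02 and 2.89 CPM in Young and 5.68, 4.21, 2.4, 8.09 and 33.7 CPM in Old, overlapping apart from Old 4 and Old 5 (adjusted p = 0.10). Cd86, a co-stimulatory ligand for T cells, had 1, 1, 3, 4 and 5 counts in Young and 5, 9, 3, 9 and 60 counts in Old (adjusted p = 0.0764).

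Treated aged kidneys were also compared with Young. These libraries differ from Young in both age and treatment, which cannot be told apart here. The Young libraries are the same ones as in Old against Young. In Old + YM, 2 of 32 genes rose (6.42% of all genes), Cd14 and Itgam, and 1 fell (9.63% of all genes), Csf1r. Cd14 was at 8.38, 8.39 and 8.39 CPM in Old + YM against 2.48 to 4.07 CPM in Young (log2 1.41, SE 0.26, adjusted p = 0.00177). Itgam had 8, 26 and 9 counts in Old + YM (log2 2.98, adjusted p = 0.0127). Csf1r was at 30.5, 43.4 and 35.3 CPM, with no overlap with Young (log2 -1.01, SE 0.24, adjusted p = 0.0106). The median over the 32 genes was 0.95. In Old + PM, 3 genes rose (2.93% of all genes) and 0 fell (3.64% of all genes), with a median of 1.39. These were Cx3cr1 (log2 1.44, adjusted p = 0.0298), Fcer1g (log2 1.92, adjusted p = 0.043) and Ms4a7 (log2 1.78, adjusted p = 0.0411). Unadjusted p was under 0.05 for 13 genes in Old + YM (32.2% of all genes) and 19 in Old + PM (21.9% of all genes). In Old + YM, DESeq2 called 5 of the genes higher (1253 of all 14665 genes) and limma-voom 2 (1077 of all genes), and both called only Csf1r lower. In Old + PM, DESeq2 called 9 higher (684 of all genes) and limma-voom 1 (387 of all genes), and both called 0 lower.

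The Old libraries enter these counts through the shared estimate of spread. Without Old 5, 17 genes rose in Old + YM (7.87% of all genes) and 21 in Old + PM (4.21% of all genes), with 1 (10.2% of all genes) and 0 (4.57% of all genes) that fell. Other libraries also moved these small counts. For Old + YM the number that rose was 4 without Young 5 and 1 without Old + YM 2, and Csf1r did not pass without Old + YM 1 or Old + YM 3. For Old + PM it was 5 without Old 3 or Old 4, 1 without Young 2, Young 5 or Old + PM 1, and 0 without Young 3, Young 4 or Old + PM 2. Read by library rather than by test, 12 of the 33 genes had all 11 aged libraries above all 5 Young libraries, where 2.21% of all tested genes did and 2.99% had all below. They were C1qb, C1qc, Fcer1g, Tyrobp, Cx3cr1, Itgam, Mrc1, Ctss, Cybb, Irf8, Laptm5 and Cd52.

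By their choice these 12 genes lie above Young in every treated library, and levels of some of them are given as a description. Tyrobp was at 12.8, 8.88 and 12.6 CPM in Old + YM and at 15.6, 20.4 and 10.2 CPM in Old + PM, against 4.34 to 7.03 CPM in Young. Cx3cr1 was at 24.1, 20.6 and 24.6 CPM in Old + YM and at 22.5, 48.8 and 33 CPM in Old + PM, against 11.3 to 14.2 CPM in Young. Both genes spread more widely in Old + PM than in Old + YM. Irf8 was at 41, 30.5 and 43.6 CPM in Old + YM and 47, 61.2 and 37.4 CPM in Old + PM, and Cybb at 17, 10.6 and 13.7 CPM in Old + YM and 18.3, 28.9 and 17.1 CPM in Old + PM. For Cd52 the levels were 23.5, 20.1 and 27.8 CPM in Old + YM and 31.7, 39.7 and 26.6 CPM in Old + PM, and for Laptm5 they were 23.6, 21.3 and 21.3 CPM in Old + YM and 22.6, 33.9 and 21.7 CPM in Old + PM. In each of these 4 genes Old + PM 2 was the highest of the 6 treated libraries. Lyz2 did not follow, at 7.76, 9.12 and 14.8 CPM in Old + YM and 15.1, 10.5 and 2.79 CPM in Old + PM, where Old + PM 3 lay within the Young range of 0.755 to 4.07 CPM. Spi1 was at 3.83, 2.31 and 6.03 CPM in Old + YM and 6.52, 7.61 and 3.83 CPM in Old + PM and overlapped Young in both groups. Old + PM 2 was second highest of all 16 libraries for 17 of the 33 genes. Its T and NK cell markers summed to 28 CPM and its fibroblast markers to 303 CPM, the highest of the treated libraries for both lists, and their part in these values was not tested.

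By role, the summed C1q level was 28.8 to 42.1 CPM in Young, 49.8 to 348 in Old, 72.6 to 93.8 in Old + YM and 74 to 152 in Old + PM. The 6 Fc receptor and adaptor genes summed to 36.6 to 38.5, 50.4 to 223, 49.3 to 71.7 and 63.1 to 104 CPM in the same order, and the 5 lysosomal and oxidase genes to 29.5 to 37.1, 60.7 to 486, 66.8 to 99.7 and 74.4 to 126 CPM. The 5 other surface and cytoskeletal genes summed to 24.8 to 33.2, 44.7 to 286, 47.7 to 59.3 and 56.4 to 93 CPM. In these roles no aged library overlapped Young. The 5 growth factor, chemokine and adhesion receptors overlapped, at 71.6 to 102 CPM in Young and 65.6 to 73.5 CPM in Old + YM. Pattern, scavenger and lectin receptors (51.7 to 80.3 CPM in Young, 53.9 to 149 in Old) and transcription factors (25.9 to 30.6 and 30.3 to 147) overlapped too.

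Neither formula changed a myeloid gene past the threshold against untreated Old. Both comparisons use the same Old libraries, so the values are given side by side. For Old + YM, 0 of 32 genes rose (0.0205% of all genes) and 0 fell (0% of all genes) by the edgeR test, with 3 at an unadjusted p under 0.05 (Csf1r, Itgax and Ms4a7, 9.48% of all genes) and a smallest adjusted p of 0.495. DESeq2 and limma-voom gave 0 as well. The median log2 fold change was -0.64, with 28 negative and 4 positive values (45.5% of all genes were positive). Without Old 5, 0 rose (0.00686% of all genes) and the median was 0.016, with 13 negative and 18 positive values (50.6% of all genes). For Old + PM, 0 rose and 0 fell (0% of all genes each way), with 0 at an unadjusted p under 0.05 (6.16% of all genes), a smallest adjusted p of 0.886, and 0 by DESeq2 and by limma-voom. The median was -0.29, with 28 negative and 4 positive values (46.2% of all genes). Without Old 5 the median was 0.46, 30 of 31 values were positive (49.9% of all genes) and 11 had an unadjusted p under 0.05 (5.45% of all genes), with 0 past the threshold after adjustment. Both medians thus changed sign without Old 5. With Old 5 included, the median for Old + PM was also positive with limma-voom, at 0.032. It was 0.30 with the replicate number as a block. Numbers 4 and 5 occur only in Young and Old, and the part of this in the median was not tested.

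C1qb shows the width of these comparisons. Its log2 fold change against Old was -0.70 (95% interval -1.84 to 0.44) in Old + YM and -0.15 (95% interval -1.26 to 0.96) in Old + PM. Without Old 5 these were 0.07 (-0.47 to 0.61) and 0.60 (0.07 to 1.13). For Ctss they were -0.87 (-2.22 to 0.47) and -0.61 (-1.93 to 0.72), and all 4 of the intervals that include Old 5 reach past a 2-fold fall. Genes that Old 5 did not dominate were measured more tightly. Cd14 was at 7.27, 6.98, 5.11, 3.8 and 8.19 CPM in Old and 8.38, 8.39 and 8.39 CPM in Old + YM, where every treated library was above every Old library (log2 0.42, 95% interval -0.12 to 0.95, adjusted p = 0.614). Fcgr2b gave 0.12 (-0.30 to 0.53) in Old + YM and -0.05 (-0.47 to 0.37) in Old + PM, and Csf1r gave -0.53 (-1.04 to -0.02) and 0.19 (-0.30 to 0.68).

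**Figure D5:**
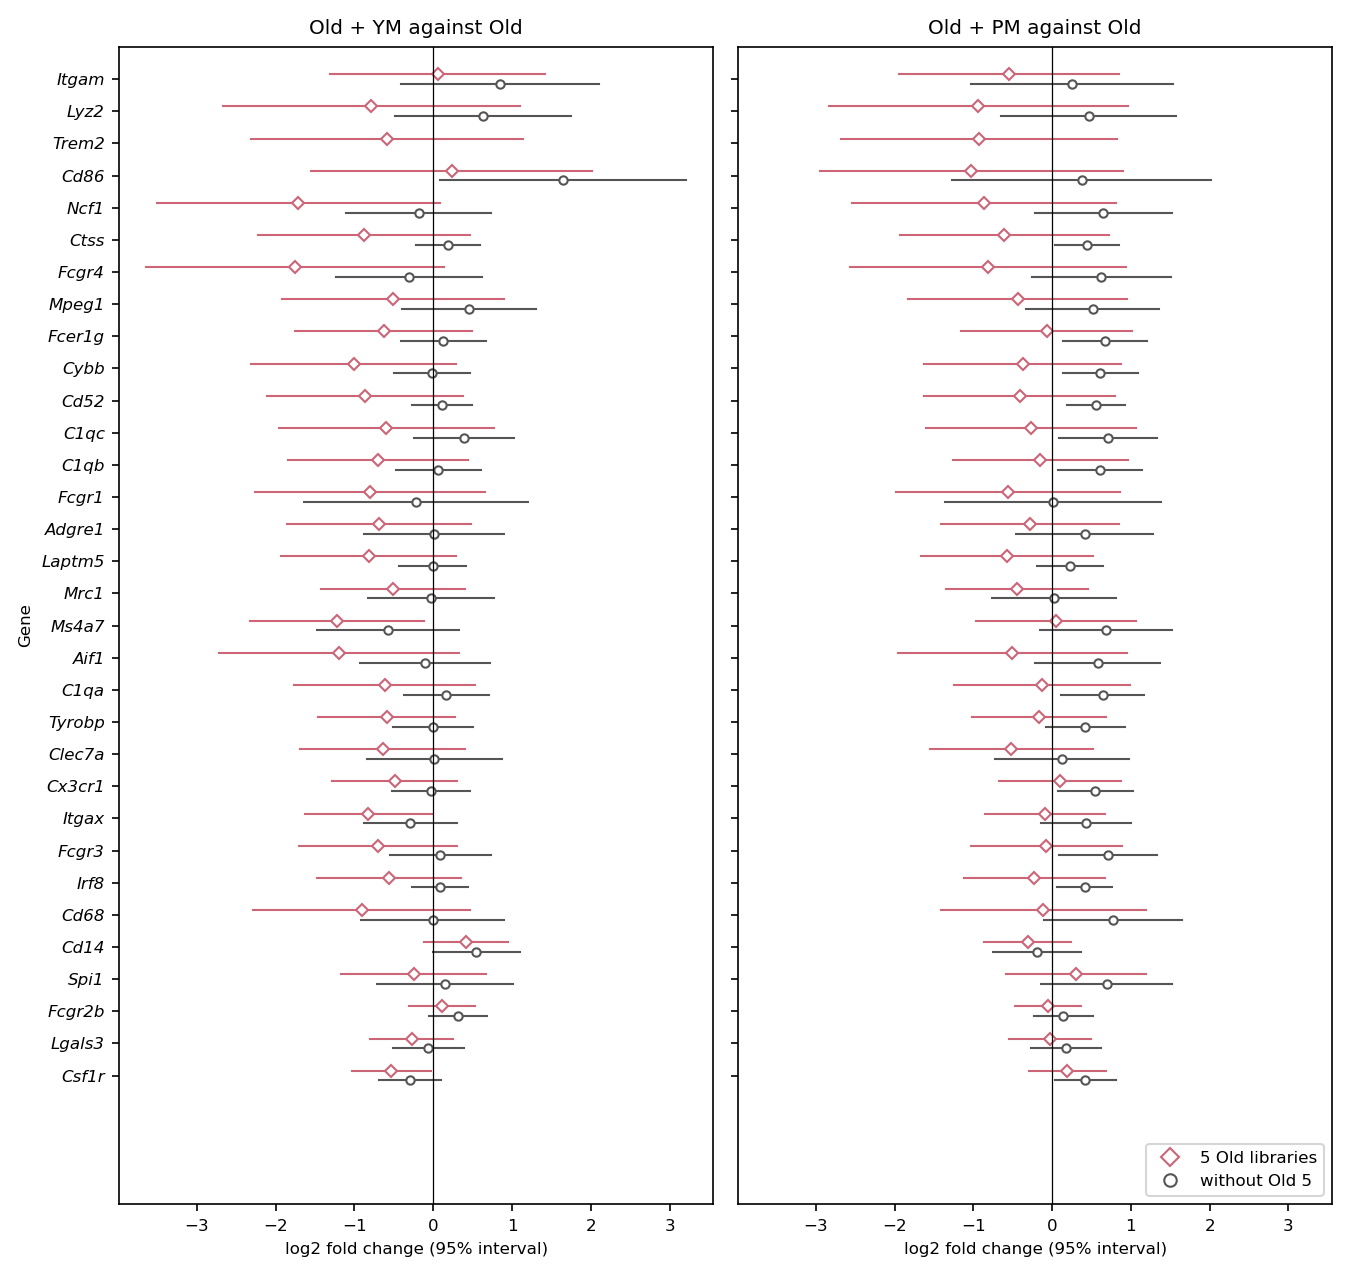
Log2 fold change with 95% interval of each tested gene in Old + YM and in Old + PM against Old, with all 5 Old libraries (diamonds) and without Old 5 (circles). The points lie further to the right without Old 5, and the median moves from -0.64 to 0.016 in Old + YM and from -0.29 to 0.46 in Old + PM.

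The formulas were given at the same dose and over the same months, and were compared directly. Of 32 genes, 0 were higher and 0 lower in Old + PM than in Old + YM (0% of all genes each way, edgeR, and 0 by DESeq2 and by limma-voom), with a smallest adjusted p of 0.303. An unadjusted p under 0.05 was found for Csf1r, Cd14 and Ms4a7 (12.8% of all genes). Csf1r was at 60.9, 62 and 57.1 CPM in Old + PM and 30.5, 43.4 and 35.3 CPM in Old + YM, with no overlap (log2 0.72, 95% interval 0.17 to 1.28, adjusted p = 0.303). Cd14 was at 5.03, 6.28 and 3.83 CPM in Old + PM and 8.38, 8.39 and 8.39 CPM in Old + YM, the opposite way (log2 -0.73, 95% interval -1.34 to -0.12, adjusted p = 0.324). Ms4a7 was at 5.59, 6.55 and 4.24 CPM in Old + PM and 4.04, 1.58 and 1.12 CPM in Old + YM (log2 1.27, 95% interval 0.07 to 2.47, adjusted p = 0.365). Groups did not overlap for 7 genes that were higher (11.9% of all genes) and 2 that were lower (11.9% of all genes), and the median was 0.42 with 26 positive values (51.5% of all genes). Markers of T and NK cells summed to 13.6 to 28 CPM in Old + PM and 10.3 to 13.6 CPM in Old + YM, and those of B and plasma cells to 86 to 97 CPM in Old + PM and 188 to 422 CPM in Old + YM.

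Other genes of the pathway were counted from further lists in Old against Young, where 6.47% of all genes rose and 7.13% fell. The lists overlap in part, and Rac2 is counted both among the leukocyte genes and among the oxidase partners. Without Old 5, 3.76% of all genes rose and 4.53% fell. Of 12 genes shared by all leukocytes, 7 rose and 0 fell (median log2 1.48), among them Lsp1 (log2 1.78), Arhgdib (1.31) and Coro1a (1.70), all linked to the actin skeleton. Of 15 tested genes listed with Tyrobp and Fcer1g signalling, a list that also holds inhibitory receptors, 7 rose and 0 fell (median 1.47). They included Sirpa, an inhibitory receptor for CD47, at 22.9, 25.6, 24.9, 25.8 and 43.5 CPM in Young and 49.9, 52.8, 53.8, 34 and 80.4 CPM in Old (log2 0.93, adjusted p = 0.00711), and the adaptor Lat2 (log2 1.52, adjusted p = 0.0474). Without Old 5, 6 of 12 and 2 of 14 rose. Of the 5 partners of the NADPH oxidase, 2 rose and 0 fell (median 1.18), of which Rac2 is the leukocyte form of Rac (log2 2.18, adjusted p = 0.0142). Without Old 5, 1 of these 5 rose.

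Among 8 tested ligands and bridging proteins of macrophages, 3 rose and 0 fell (median 0.86). Apoe, a lipid carrier that macrophages secrete, was at 185, 201, 168, 223 and 194 CPM in Young and at 474, 506, 512, 658 and 1126 CPM in Old. It was the clearest of these values and did not need Old 5 (log2 1.76, SE 0.20, adjusted p = 6.86e-05, and log2 1.47 without Old 5, adjusted p = 3.90e-07). Apoe is also counted among the lipid- and damage-linked genes below. Pros1, a bridge from dying cells to the receptor Mertk, was at 11.1 to 18 CPM in Young and 21.3 to 38.5 CPM in Old (log2 0.94, adjusted p = 0.00166). Of 18 tested genes of tissue macrophages, 4 rose and 1 fell (median 0.81). Axl rose from 22 ± 3.54 to 43.8 ± 15.5 CPM (SD, n = 5 each, log2 0.99, adjusted p = 0.00541), and Ms4a6c rose as well (log2 2.30, adjusted p = 0.0101). Selenop, a selenium carrier, fell (log2 -0.69, adjusted p = 0.00252). Apoe and Selenop had means of 475 and 1463 CPM over all libraries, while Adgre1 had means of 1.94 CPM in Young and 6.83 CPM in Old. Which kidney cells the reads of Apoe and Selenop came from was not tested.

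Of 8 tested monocyte genes, 2 rose and 1 fell (median 0.77). Ccr2, the receptor that draws monocytes out of bone marrow, was at 6.3, 6.3, 6.58, 7.98 and 6.57 CPM in Young and at 9.76, 9.76, 10.6, 12.6 and 13.1 CPM in Old, without overlap and without an outlying Old 5 (log2 0.73, SE 0.17, adjusted p = 0.00852). Ace, a gene of non-classical monocytes that kidney tubules and vessels also use, fell (log2 -1.15, adjusted p = 0.00132). Of 8 tested dendritic cell genes, 2 rose and 0 fell (median 0.56), and 0 rose without Old 5. Of 13 tested lipid- and damage-linked genes, 4 rose and 1 fell (median 0.31). Spp1, osteopontin, which tubules also make, rose from 113 ± 29.3 to 225 ± 70.4 CPM (SD, n = 5 each, adjusted p = 0.00852), and Lpl, lipoprotein lipase, fell (log2 -1.07, adjusted p = 0.000341). Lpl had a mean of 613 CPM over all libraries, and which kidney cells its reads came from was not tested. Without Old 5, 3 of the 8 ligands and bridging proteins, 3 of the 18 tissue macrophage genes, 2 of the 8 monocyte genes and 3 of the 13 lipid- and damage-linked genes rose (3.76% of all genes).

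Markers of other cell types moved in the same comparison, where 6.47% of all genes rose and 7.13% fell. Without Old 5 these shares were 3.76% and 4.53%. Of 9 tested T and NK cell markers, 3 rose and 0 fell, and 0 of 7 rose without Old 5. Their summed level was 4.1 to 7.72 CPM in Young. Of 11 tested B and plasma cell markers, 6 rose and 0 fell, and 3 of 8 rose without Old 5. Their summed level was 9.28 to 20.9 CPM in Young and 127 to 248 CPM in Old, with Old 5 the highest library. Igkc alone went the other way, at 40.5, 95.6, 56.9, 49.99 and 37.7 CPM in Old, where Old 5 was the lowest library. Cd79a, a defining B cell gene, had 0 or 1 count in every library but Old 5, which had 5. Of 3 tested neutrophil genes 2 rose, and 1 of 3 rose without Old 5, with a summed level of 2.33 to 3.24 CPM in Young and 4.68 to 16.8 CPM in Old, and their defining gene Ly6g had 0 counts in every library but Old 5, which had 3. Of 8 tested fibroblast and pericyte markers, 3 rose and 0 fell (median log2 0.85, with 8 positive values), and 0 of 8 rose without Old 5. Their summed level was 130.4 to 162 CPM in Young and 153 to 389 CPM in Old. The part of these cells in the myeloid results was not tested.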

How the data were processed

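QuantSeq 3′ libraries of 16 kidney samples in 4 groups were deposited as raw counts per gene symbol, whole numbers with no normalization. Per the submitters' processing notes, the authors used Bowtie2, bedtools and the mm10 build. Their versions, the annotation, the use of strand and the handling of multiply aligned reads are not stated there. Every library had its own file, and groups and replicate numbers came from the titles.

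Testing used edgeR 4.0.16 in R 4.3.3: filterByExpr by group (minimum count 10) left 14665 genes, library sizes were scaled by TMM, and all 16 libraries entered 1 robust quasi-likelihood fit with group as the term. The 6 comparisons were tested two-sided and adjusted by Benjamini-Hochberg over all 14665 genes at 0.05. SE was calculated as the absolute log2 fold change divided by the square root of the quasi-likelihood F statistic. The 95% intervals extend that SE times a t quantile to either side of the log2 fold change. The filter keeps a gene that is high in 1 group only. The code was tested on simulated data. Medians and counts over lists are descriptions. A terminal stretch is any 50 bases within the last 500 bases of an annotated transcript (GENCODE M21), compared with other genes.

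All 33 genes are accounted for, by role. Of each other list, at most 3 genes are named, by smallest adjusted p in Old against Young among those that passed with a mean of at least 5 CPM, and defining markers of other cells may also be named. The genes, lists and printed start sites were chosen with earlier results of these data known. No 2 libraries of the same group agreed within sampling noise, and pairs across groups were not checked. Alternatives were RLE and upper quartile scaling, library sizes without mitochondrial counts, DESeq2 1.42.0, limma-voom (limma 3.58.1), no filter, a group-blind filter at a mean of 1 CPM, only the 2 groups compared, a replicate block, and leaving out each library.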

Additional observations from a re-analysis of the deposited data

Results flagged for a closer look

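Of 68 sets of 5 libraries examined, 26 had a library whose gap to its neighbour exceeded 0.71 of the range, Dixon's 95% critical value for 5 libraries. Chance gives about 1 in 20. Old 5 was that library in 25 of them, high each time. They share 1 library and are not independent.

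The summed level of all 33 genes was 1825 CPM in Old 5. C1q levels there were 106 CPM for C1qa, 122 for C1qb and 119.9 for C1qc. Among the Fc receptors and adaptors, Fcgr3 was at 16.7 CPM, Fcgr4 at 39.2, Fcer1g at 92.3 and Tyrobp at 40.1. Integrins and Adgre1 followed, with Itgam at 4.19 CPM, Itgax at 14.9 and Adgre1 at 17.2. Clec7a was at 11.7 CPM, Cd163 at 1.10 and Cd68 at 21.1. Lysosomal and oxidase genes reached 280.1 CPM for Ctss, 63.5 for Lyz2, 33.5 for Mpeg1, 82.6 for Cybb and 26.6 for Ncf1. Irf8 was at 137 CPM, Laptm5 at 105, Aif1 at 33.7, Cd52 at 129, Ms4a7 at 12.8 and Cd86 at 5.99. The other gap was in Young 5, with Fcgr1 at 1.18 CPM against 0.413 to 0.610 in the other Young libraries, a few counts.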

How the results depend on the processing

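Across the summary results and their alternatives, 418 values stayed within the tolerance, 28 moved beyond it and 4 changed sign. The tolerance was 1.5 times for a count and 1.12 (log2, the largest SD between libraries of a group) for a median, which is wide: the median of Old against Young was 1.76, and 0.93 without Old 5. The number of genes that rose in Old against Young was 5 with limma-voom (715 of all 14665 genes) and 8 with only the 2 groups compared (674 of 13398). It was 10 to 25 with 1 library left out, and the number that fell was 0 to 1. The number that rose in Old + YM against Young was 5 with DESeq2 and 15 with only the 2 groups compared (1343 of all 13742 genes). It was 1 to 17 with 1 library left out, and the number that fell was 0 to 1. In Old + PM against Young the number that rose was 9 with DESeq2, 1 with limma-voom and 16 with only the 2 groups compared (478 of all 13814 genes). It was 0 to 21 with 1 library left out. The median log2 change was -0.81 to 0.016 in Old + YM against Old with 1 library left out. In Old + PM against Old it was -0.51 to 0.46, and 0.032 with limma-voom. The cause was not tested. With the replicate number as a block, 16 genes rose in Old against Young (924 of all 14665 genes). With it, 11 rose in Old + YM against Young (1036 of all genes) and 14 in Old + PM against Young (483). The median of Old + PM against Old was 0.30 with this block, where numbers 4 and 5 occur only in Young and Old. Same-numbered libraries of different groups did not deviate together (mean r -0.004 over 20 pairs, range -0.30 to 0.16), so the numbers were not taken as pairs. Most libraries correlated best with a library of a different number. Of single genes in Old against Young, 650 of 792 values kept their call, 123 lost it and 19 gained one. Over all genes, upper quartile scaling gave 1104 higher and 758 lower in Old against Young (949 and 1046 with TMM), 1181 and 1040 in Old + YM against Young (942 and 1412), and 577 and 347 in Old + PM against Young (429 and 534). All genes called in Old + YM against Old numbered 3, and 49 with DESeq2, 6 with no filter, 20 with only the 2 groups compared, 6 with the block and 0 to 39 with 1 library left out (39 without Young 5). In Old + PM against Old + YM they numbered 0, and 58 with DESeq2, 4 with limma-voom, 8 with no filter, 13 with only the 2 groups compared, 1 with the block and 0 to 32 with 1 library left out (32 without Young 5), none of them among the 33 genes. At about 8 counts per CPM, Itgam, Trem2, Cd86, Cd163 and Fcgr1 in Young rest on few counts.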
